A study of Mus musculus with 9 samples.

Results

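CC chemokine ligands are small secreted proteins, named for a pair of adjacent cysteines, that bind receptors on white blood cells and steer them along a concentration gradient. Of this family, 9 mouse genes were followed here in liver RNA: Ccl2, Ccl3, Ccl4, Ccl5, Ccl6, Ccl7, Ccl9, Ccl22 and Ccl24. They were chosen by symbol, and each symbol matched 1 Ensembl ID in the GENCODE M21 annotation, so that 9 of the 54532 gene IDs in the count table are described.

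RNA of 9 livers, 3 in each of 3 groups, was sequenced and counted per gene to compare diet and antibody treatment. All mice were ApoE-/- on the C57BL/6 background, lacking the apolipoprotein that clears remnant lipoproteins from blood, and all were male per the design. The first group, normal diet, had replicates 4, 5 and 6. The other groups ate a high-fat diet (HFD) (about 4700 kcal/kg, fat giving 41% of the calories, carbohydrate 43% and protein 17%) from 4 weeks of age for 20 weeks, and then chow for 1 week. HFD + PBS (replicates 3, 4 and 6) received PBS into the peritoneum at 25, 26 and 27 weeks of age, and HFD + IgG1 (replicates 5, 6 and 7) received 3 mg of recombinant human IgG1 at those ages. Both were killed at 29 weeks. The sources used here do not give the target of the antibody, the food after the week of chow, or the age at death and any injections of the normal diet group. Diet, age at death and injection therefore cannot be told apart in comparisons with normal diet. Livers were picked for sequencing by Oil Red O staining and triglyceride content.

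The libraries held 16215194 to 18538463 counts. In 3 of them the reads went against the labels. The library labelled HFD + IgG1 replicate 5 had 235888 Apoe counts against 225 to 1655 in the other 8. The libraries labelled normal diet replicate 5 and HFD + PBS replicate 6 had 17065 and 10970 counts of Xist, the RNA of the inactive X chromosome, and 0 counts of 4 Y-linked genes, which had 2837 to 3385 counts in the other 7. The treatment label names IgG1 for HFD + IgG1 replicate 5 and IgG2 and IgG3 for replicates 6 and 7, while titles and design place all 3 in 1 group. The 3 libraries whose reads went against the labels are called the 3 doubtful libraries below. For several ligands the fold changes are also given without them. The ratio of Ccl6 to Ccl9, marker sums, receptors, other ligands and gene lists are given with all 9 libraries only. Hepatocyte markers summed to 52940 to 167100 CPM, each gene's counts scaled to the library's total,, and markers of skeletal muscle, pancreatic acinar cells and adipocytes to at most 4.83, so that all libraries read as liver.

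In fatty liver, Kupffer cells, the resident macrophages, and stressed hepatocytes release Ccl2, which draws monocytes that carry the receptor Ccr2. Ccl7 binds the same receptor, Ccl3 and Ccl5 act on Ccr1 of myeloid cells among other receptors, and Ccl6 and Ccl9 act on Ccr1. Ccl22 binds Ccr4 of T cells and Ccl24 binds Ccr3 of eosinophils. Several of these genes are induced by the transcription factor NF-kB.

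Several ligands of myeloid cells stood higher in HFD + PBS livers than in normal diet livers, though none passed the adjusted threshold. In TMM-scaled CPM, Ccl3, Ccl6 and Ccl9 were higher in every HFD + PBS library than in any normal diet library. Ccl22 was lower in every one. By this measure 3 of 9 ligands stood higher, against a background of 13% of all genes tested, and 1 stood lower, against 15.3%. The 1 was Ccl22, which separated by the TMM scaling and not by counts, as given below. It also failed the filter on low counts in a fit of only the HFD groups. It thus passed through normal diet, where it was high, and is no separate support. In CPM, Ccl6 averaged 153.9 ± 5.86 against 50.6 ± 19.1 in normal diet, Ccl9 99.4 ± 21.2 against 50.1 ± 15.5 and Ccl3 1.94 ± 1.07 against 0.344 ± 0.287 (SD, n = 3). Of the 8 ligands that passed the filter on low counts, 7 had a positive fitted difference, with a median log2 fold change of 1.15, where the median over all genes tested was -0.0028. Without HFD + PBS replicate 3 the ligands' median was 0.27. None of the 8 passed an adjusted p of 0.05 in edgeR, nor did any gene (0% of 14763), the lowest adjusted p over all genes being 0.0627. At an unadjusted p under 0.05, Ccl3, Ccl6 and Ccl9 were higher, 3 of 8 against 9.41% of all genes, and 0 of 8 were lower against 11.4%. Ccl3 passed the filter through HFD + PBS, where it was high, since it failed in a fit of only HFD + IgG1 and normal diet. Its place in this count and in the count without overlap is therefore no separate support. limma-voom also called 0 genes, and DESeq2 called 1184, among them the same 3 ligands, all higher, against 3.6% of all genes called higher.

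Several of the same ligands stood lower in HFD + IgG1 livers than in HFD + PBS livers, again without passing the adjusted threshold. Ccl3, Ccl4, Ccl5 and Ccl6 were lower in every HFD + IgG1 library than in any HFD + PBS library, which is 4 of 9 ligands against a background of 11.2%, and 0 were higher against 15.3%. In CPM, Ccl6 averaged 41.1 ± 41.4 against 153.9 ± 5.86 in HFD + PBS, Ccl5 2.56 ± 0.623 against 16.6 ± 17.0 and Ccl3 0.262 ± 0.242 against 1.94 ± 1.07 (SD, n = 3). All 8 fitted differences were negative, with a median log2 fold change of -1.67, where the median over all genes tested was 0.04. Without HFD + PBS replicate 3 the ligands' median was -0.80. No ligand passed the adjusted threshold in edgeR (0% of genes, lowest adjusted p over all genes 0.140). At an unadjusted p under 0.05, 5 of 8 were lower (Ccl2, Ccl3, Ccl4, Ccl5 and Ccl6) against 11.6% of all genes, and 0 were higher against 12.6%. Of these, Ccl3 and Ccl4 passed the filter only through HFD + PBS, the group where they were high. limma-voom called 0 genes and DESeq2 called 1265, among them Ccl3, Ccl5 and Ccl6, all lower, against 4.75% of genes called lower. Both comparisons share the HFD + PBS libraries, so a high HFD + PBS value enters each of them with opposite sign.

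Between HFD + IgG1 and normal diet, 7 of 8 fitted differences were negative, and the groups overlapped for all ligands but Ccl22. It was lower in every HFD + IgG1 library, 1 of 9 ligands against a background of 6.41%, and 0 were higher without overlap against 5.54%. The median log2 fold change of the 8 ligands was -0.33. Without the 3 doubtful libraries Ccl7 also passed the filter, and the median of the 9 ligands then tested was 0.43. edgeR called 0 ligands and 0% of genes, and no adjusted p was under 0.158. At an unadjusted p under 0.05, Ccl22 was lower, 1 of 8 against 3.21%, and 0 were higher against 3.83%. Ccl22 failed the filter in a fit of only the HFD groups, and so was tested through normal diet, where it was high. limma-voom called 0 genes and DESeq2 called 111, with no ligand among them.

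**Figure D1:**
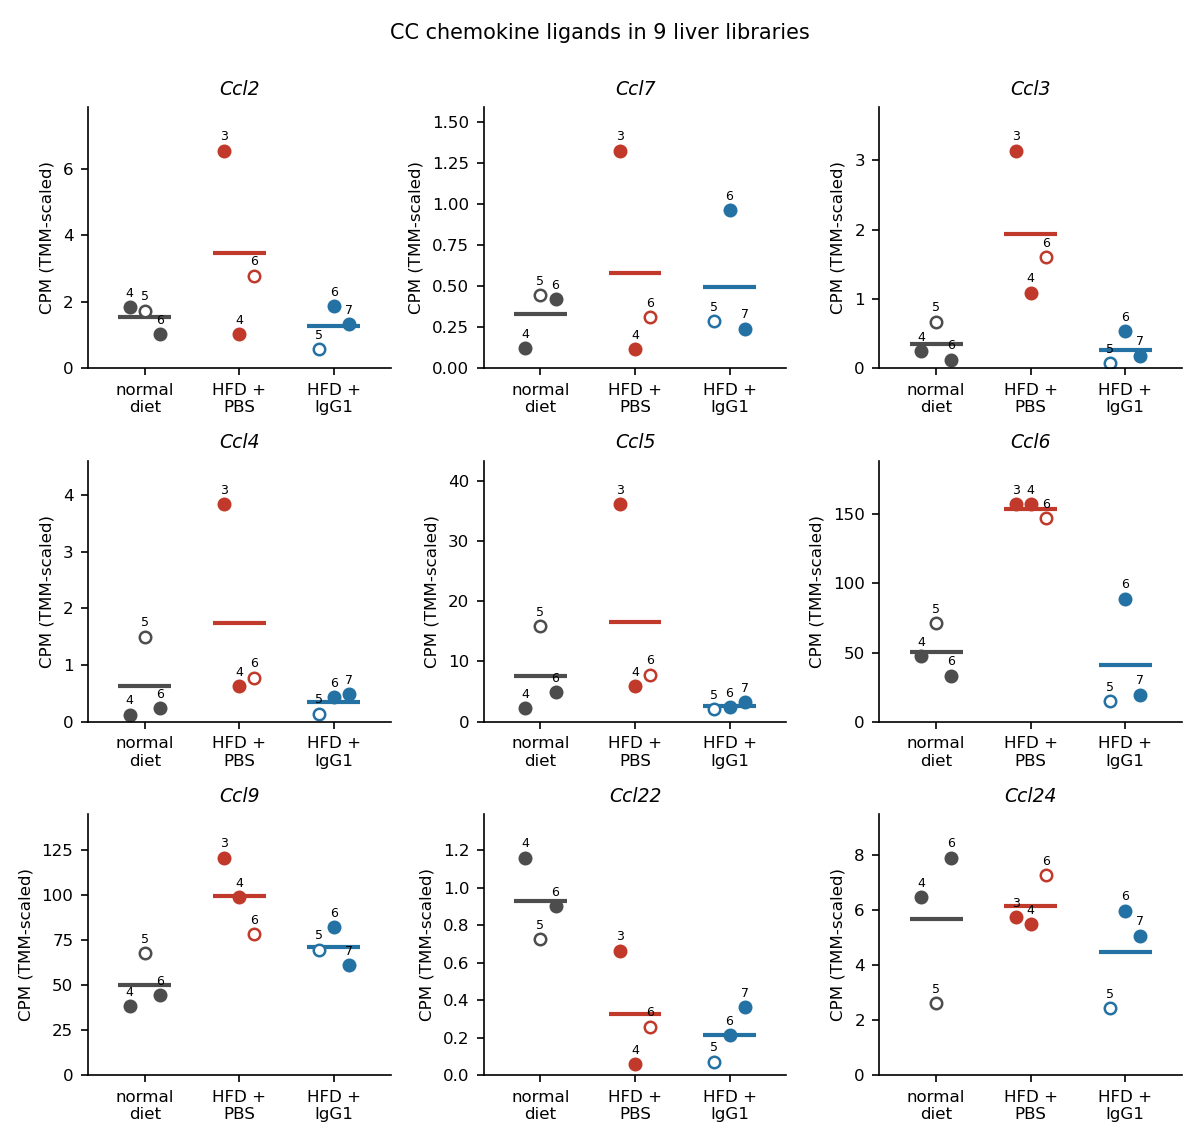
CPM (TMM-scaled, linear axes from 0) of the 9 ligands in each library, with replicate numbers beside the points, group means as bars and open points for the 3 doubtful libraries. All 3 HFD + PBS points of Ccl6 sit between 147 and 157 CPM, while for Ccl4 and Ccl5 the HFD + PBS mean is set by replicate 3.

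Ccl2, the ligand that draws Ccr2-carrying monocytes, lies on chromosome 11 (chr11:82035571-82037453, plus strand, mm10). In the order of replicates given above, it stood at 1.83, 1.73 and 1.02 CPM in normal diet, 6.54, 1.03 and 2.79 in HFD + PBS, and 0.571, 1.87 and 1.33 in HFD + IgG1. The groups overlapped, since HFD + PBS replicate 4 was close to the lowest normal diet liver. The log2 fold change of HFD + PBS over normal diet was 1.18 (SE 0.64, edgeR adjusted p = 0.317), and 0.35 without HFD + PBS replicate 3. That of HFD + IgG1 over HFD + PBS was -1.44 (SE 0.65, edgeR adjusted p = 0.206), and -0.61 without the same library.

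Ccl7, a neighbour 8.3 kb away that binds the same receptor and others (chr11:82045712-82047525, plus strand), was near the limit of detection. Its counts were 2, 8 and 7 in normal diet, 30, 2 and 6 in HFD + PBS and 4, 18 and 4 in HFD + IgG1, in that order. HFD + PBS replicate 3 and HFD + IgG1 replicate 6 were the high libraries, and no group stood apart. It failed the filter on low counts. Fitted without that filter, its log2 fold changes were 0.86 (SE 0.87) for HFD + PBS over normal diet, -0.26 (SE 0.84) for HFD + IgG1 over HFD + PBS and 0.60 (SE 0.89) for HFD + IgG1 over normal diet.

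Ccl3, a ligand of Ccr1 that macrophages release on activation (chr11:83647844-83649355, minus strand), had 4, 12 and 2 counts in normal diet, 71, 19 and 31 in HFD + PBS and 1, 10 and 3 in HFD + IgG1. In CPM these were 0.244, 0.668 and 0.12, then 3.14, 1.09 and 1.60, then 0.0714, 0.534 and 0.181. The lowest HFD + PBS liver was above the highest of both other groups. On the log2 scale the fold change was 2.46 (SE 0.77, edgeR adjusted p = 0.137) for HFD + PBS over normal diet and -2.81 (SE 0.79, edgeR adjusted p = 0.140) for HFD + IgG1 over HFD + PBS. Without the 3 doubtful libraries these were 3.52 (SE 0.95) and -2.56 (SE 0.87), and without HFD + PBS replicate 3 they were 1.96 and -2.29. DESeq2 gave adjusted p = 0.0378 and 0.0202.

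Ccl4, which activated macrophages and lymphocytes release and which lies 13.2 kb from Ccl3 on the opposite strand (chr11:83662584-83664683), stood at 0.122, 1.50 and 0.240 CPM in normal diet, 3.84, 0.629 and 0.774 in HFD + PBS and 0.143, 0.428 and 0.483 in HFD + IgG1. The library labelled normal diet replicate 5 was above 2 of the 3 HFD + PBS livers, while all HFD + IgG1 livers were below all HFD + PBS livers. HFD + PBS exceeded normal diet by 1.48 on the log2 scale (SE 0.96, edgeR adjusted p = 0.403). The value was 0.19 without HFD + PBS replicate 3 and 3.62 (SE 1.05) without the 3 doubtful libraries. HFD + IgG1 differed from HFD + PBS by -2.28 (SE 1.02, edgeR adjusted p = 0.204), and by -0.98 without HFD + PBS replicate 3.

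Ccl5, a ligand that T and NK cells make in quantity (chr11:83525778-83530518, minus strand), stood at 2.20, 15.9 and 4.92 CPM in normal diet, 36.2, 5.89 and 7.79 in HFD + PBS and 2.07, 2.35 and 3.26 in HFD + IgG1. HFD + PBS replicate 3 was the highest library and the library labelled normal diet replicate 5 the next. HFD + IgG1 was narrow and below every HFD + PBS liver. HFD + PBS stood above normal diet by 1.12 on the log2 scale (SE 0.83, edgeR adjusted p = 0.475). This turned to -0.14 without HFD + PBS replicate 3 and was 2.60 (SE 0.88) without the 3 doubtful libraries. HFD + IgG1 over HFD + PBS gave -2.70 (SE 0.90, edgeR adjusted p = 0.146), -1.44 without HFD + PBS replicate 3 and -2.96 (SE 0.89) without the 3 libraries. DESeq2 gave adjusted p = 0.00939 for that difference. The markers of T and NK cells, 14 genes that include Nkg7 and Gzma of cytotoxic granules, summed to 103 CPM in HFD + PBS replicate 3, to 46.3 in normal diet replicate 5 and to 14.9 to 40.9 in the other 7 libraries. Their part in the Ccl5 result was not tested. In bulk tissue, fewer cells of a type and less RNA per cell cannot be told apart.

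Ccl6 and Ccl9 are neighbouring genes of chromosome 11 on the minus strand (chr11:83587882-83593087 and chr11:83572919-83578636, 9.2 kb apart) whose products act on Ccr1, and mouse macrophages and other myeloid cells make both. Their promoter windows, from 250 bases before to 50 after the start in RefSeq (GRCm38.p6, minus strand, chr11:83593038-83593337 for Ccl6 and chr11:83578587-83578886 for Ccl9), are shown because the neighbours share a stretch of sequence there while their ratio, given below, varied between livers. Capitals mark the bases identical in the local alignment of the 2 windows.
Ccl6: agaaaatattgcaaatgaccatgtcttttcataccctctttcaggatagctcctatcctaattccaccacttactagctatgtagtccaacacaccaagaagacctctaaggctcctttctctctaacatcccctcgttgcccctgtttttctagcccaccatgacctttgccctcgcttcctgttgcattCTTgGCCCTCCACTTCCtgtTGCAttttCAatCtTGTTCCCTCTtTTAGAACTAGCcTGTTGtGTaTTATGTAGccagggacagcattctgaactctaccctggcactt
Ccl9: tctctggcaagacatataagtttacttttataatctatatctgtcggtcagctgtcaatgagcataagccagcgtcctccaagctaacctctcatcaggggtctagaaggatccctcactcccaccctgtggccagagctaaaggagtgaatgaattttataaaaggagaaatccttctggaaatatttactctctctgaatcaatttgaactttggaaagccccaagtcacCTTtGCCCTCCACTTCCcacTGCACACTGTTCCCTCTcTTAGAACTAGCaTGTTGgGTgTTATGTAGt
The alignment spanned 74 columns, of which 59 (79.7%) were identical, with a longest unbroken run of 13 bases, GCCCTCCACTTCC. Windows were found for 4 of the 9 ligands, Ccl3, Ccl6, Ccl9 and Ccl22, and the other 5 pairs among them aligned over 10 to 20 columns. The Ccl9 window held 1 match to the NF-kB consensus (found in 4.5% of 32544 promoter windows) and 3 to TATAAA (13.6%), of which 2 overlap on opposite strands. It also held 1 match, TGAATCA, to TGANTCA (7.8%), a loose form of the AP-1 motif that allows any middle base. The Ccl6, Ccl3 and Ccl22 windows held none of these, and none of the 4 windows held the PU.1 motif GAGGAAG (13.4%). Both strands were searched.

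Ccl6 was the ligand with the highest level per transcript length in normal diet and HFD + PBS. Its CPM was 47.3, 71.1 and 33.3 in normal diet, 157.2, 157.3 and 147.1 in HFD + PBS and 14.8, 88.8 and 19.6 in HFD + IgG1. The HFD + PBS livers lay close together, above every other library. HFD + IgG1 replicate 6 was above all normal diet livers, whereas replicates 5 and 7 were below all of them. In log2 terms the fold change was 1.61 (SE 0.63, edgeR adjusted p = 0.209) for HFD + PBS over normal diet and -1.90 (SE 0.64, edgeR adjusted p = 0.149) for HFD + IgG1 over HFD + PBS. DESeq2 gave adjusted p = 0.0433 and 0.0157.

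The Ccl6 result turned on HFD + IgG1 replicate 6. Without it the difference from HFD + PBS was -3.16 (SE 0.32, edgeR adjusted p = 0.00234), with the 2 remaining livers, 1 of them the library with the high Apoe count, assumed to vary like the other groups. The HFD + PBS excess over normal diet, 1.60 in that fit, then also passed in edgeR (adjusted p = 0.0223). This was not particular to Ccl6. Of 15214 genes tested in that fit, 2356 passed for HFD + IgG1 over HFD + PBS and 576 for HFD + PBS over normal diet, where 0 had passed with all 9 libraries. Without the 3 doubtful libraries, the values were 1.99 (SE 0.68) for HFD + PBS over normal diet and -1.56 (SE 0.67) for HFD + IgG1 over HFD + PBS.

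Ccl9 stood at 38.4, 67.6 and 44.3 CPM in normal diet, 120.9, 99.0 and 78.4 in HFD + PBS and 69.6, 82.1 and 61.2 in HFD + IgG1. It was the ligand with the smallest adjusted p in the diet comparison, at 0.99 on the log2 scale (SE 0.24, edgeR adjusted p = 0.0951), and 1.44 (SE 0.24) without the 3 doubtful libraries. DESeq2 gave an adjusted p of 0.00535. In HFD + IgG1 it lay between the other groups and overlapped both. The log2 difference was -0.49 from HFD + PBS (SE 0.24, edgeR adjusted p = 0.240) and 0.50 from normal diet (SE 0.24, edgeR adjusted p = 0.711). Both overlaps rest on doubtful libraries, normal diet replicate 5 and HFD + PBS replicate 6. Without the 3 doubtful libraries the groups did not overlap, and the differences were -0.66 (SE 0.24) and 0.79 (SE 0.24), neither past the adjusted threshold. With fewer livers in each group, a lack of overlap is more easily met. Its share over all genes was not computed for this smaller set, so nothing is drawn from it.

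The ratio of Ccl6 to Ccl9 counts within a library sets the neighbours side by side. It was 1.23, 1.05 and 0.753 in normal diet, 1.30, 1.59 and 1.88 in HFD + PBS and 0.213, 1.08 and 0.320 in HFD + IgG1. Every HFD + PBS liver had a higher ratio than any other library, and HFD + IgG1 replicates 5 and 7 had the lowest. The means were 1.01 ± 0.242, 1.59 ± 0.288 and 0.538 ± 0.473 (SD, n = 3). Two-sided exact permutation tests gave p = 0.1 for HFD + PBS against normal diet, p = 0.1 for HFD + IgG1 against HFD + PBS and p = 0.3 for HFD + IgG1 against normal diet, where 0.1 is the smallest value that 3 against 3 allows. The ratio was chosen after its values were seen. Reads of Ccl9 could be shared, since 1.97% of its stretches of 50 bases also occur in other genes, and no such stretch of Ccl6 does.

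**Figure D2:**
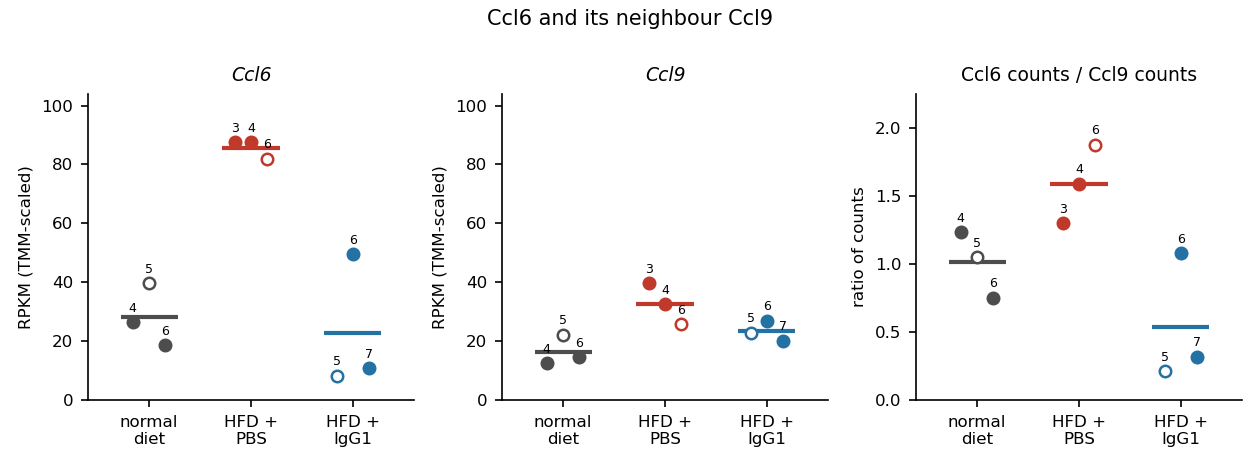
Level per transcript length (RPKM, TMM-scaled) of Ccl6 and Ccl9 on 1 scale, and the ratio of their counts, in each library with group means as bars and open points for doubtful libraries. Ccl6 averaged 85.7 RPKM in HFD + PBS against 32.7 for Ccl9, and the pair was near level in HFD + IgG1, at 22.9 and 23.3.

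Ccl22, a ligand of Ccr4 that dendritic cells and macrophages make (chr8:94745590-94751699, plus strand), ran against the other ligands in the diet comparison. It had 19, 13 and 15 counts in normal diet, 15, 1 and 5 in HFD + PBS and 1, 4 and 6 in HFD + IgG1. In CPM these were 1.16, 0.724 and 0.900, then 0.662, 0.0572 and 0.258, then 0.0714, 0.214 and 0.362. All normal diet livers were above all others in this TMM-scaled CPM. Against HFD + PBS replicate 3 this rests on the scaling. That library had 15 counts and normal diet replicate 5 had 13, with TMM factors of 1.26 and 0.988 and similar totals. The log2 fold change was -1.45 (SE 0.75, edgeR adjusted p = 0.290) for HFD + PBS over normal diet, and -2.04 (SE 0.80, edgeR adjusted p = 0.657) for HFD + IgG1 over normal diet. The HFD groups differed by -0.59 (SE 0.84), which turned to 0.42 without HFD + PBS replicate 3. With counts this low, 1 library carries most of each HFD mean. The 8 dendritic cell markers summed to 17.6 to 27.5 CPM in normal diet, 26.1 to 82.0 in HFD + PBS and 14.9 to 32.0 in HFD + IgG1, none of them at 0 throughout. Cd24a led this sum. Taken singly, 4 of the 8 markers had a positive and 4 a negative log2 fold change for HFD + PBS over normal diet (median 0.05).

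Ccl24, which acts on Ccr3 of eosinophils and is a product of alternatively activated macrophages (chr5:135569937-135573049, minus strand), stood at 6.47, 2.62 and 7.92 CPM in normal diet, 5.74, 5.49 and 7.27 in HFD + PBS and 2.43, 5.99 and 5.07 in HFD + IgG1. Its 2 low livers were the libraries labelled normal diet replicate 5 and HFD + IgG1 replicate 5. The groups overlapped in every comparison. The log2 fold change of HFD + PBS over normal diet was 0.12 (SE 0.42), with an interval of 2 SE on either side from -0.72 to 0.97, and turned to -0.33 without the 3 doubtful libraries. That of HFD + IgG1 over HFD + PBS was -0.45 (SE 0.43), from -1.31 to 0.41, and -0.06 without those libraries. Of 8 markers of eosinophils, basophils and mast cells, 3 passed the filter (led by Prg2, Epx and Siglecf) and Tpsb2 was at 0 throughout. They summed to 0.840 to 5.25 CPM in normal diet, 3.15 to 16.1 in HFD + PBS and 0.428 to 32.3 in HFD + IgG1.

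**Figure D3:**
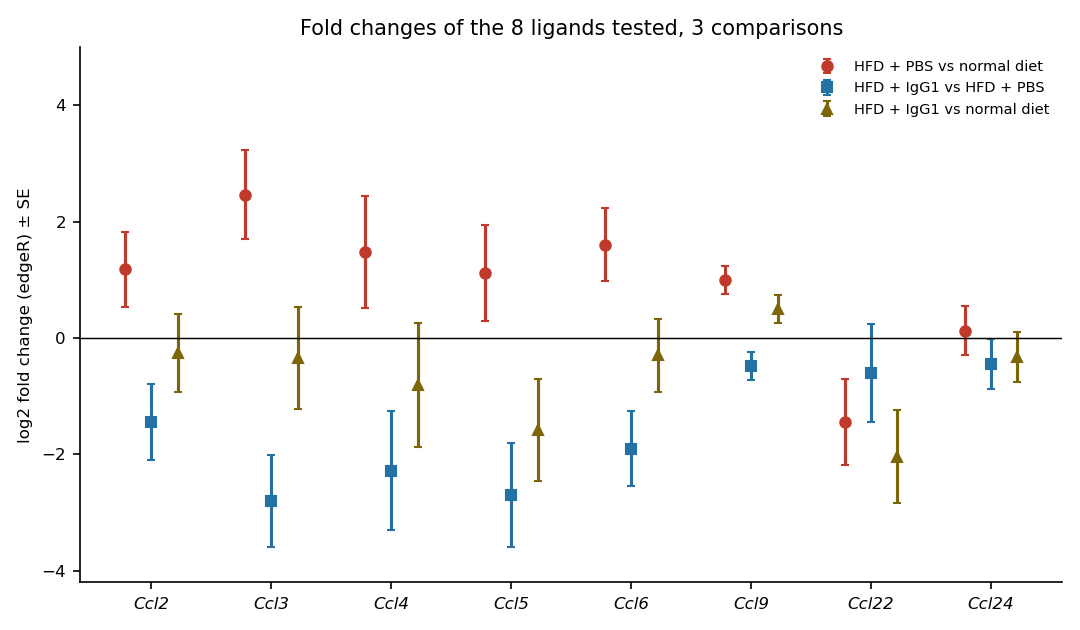
log2 fold change (edgeR) with its SE as a bar for the 8 ligands tested, in 3 comparisons. The HFD + PBS over normal diet points (circles) run from -1.45 for Ccl22 to 2.46 for Ccl3, and the HFD + IgG1 over HFD + PBS points (squares) from -2.81 for Ccl3 to -0.45 for Ccl24.

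Between HFD + IgG1 and normal diet, the groups overlapped for Ccl2, Ccl3, Ccl4 and Ccl6. Their log2 fold changes were -0.26 (SE 0.67), -0.34 (SE 0.88), -0.80 (SE 1.07) and -0.30 (SE 0.62). Each turned positive without the 3 doubtful libraries, at 0.16, 0.96, 1.28 and 0.43. Ccl5 was at -1.58 (SE 0.88, edgeR adjusted p = 0.748), and at -0.36 without those libraries. Ccl24 was at -0.33 (SE 0.43).

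Per transcript length, the order of the ligands was Ccl6, Ccl9, Ccl5, Ccl24, Ccl2, Ccl4, Ccl3, Ccl7 and Ccl22 in both normal diet and HFD + PBS. In normal diet it ran from 28.2 ± 10.6 RPKM for Ccl6 and 16.4 ± 5.07 for Ccl9 to 0.399 ± 0.0945 for Ccl22 (SD, n = 3), and Ccl24 and Ccl2 were the only neighbours whose libraries did not overlap. In HFD + PBS the libraries did not overlap between Ccl6 (85.7 ± 3.26) and Ccl9 (32.7 ± 6.97), nor between Ccl5 (17.3 ± 17.7) and Ccl24 (4.76 ± 0.745). In HFD + IgG1, Ccl9 (23.3 ± 3.46) and Ccl6 (22.9 ± 23.1) led, followed by Ccl24, Ccl5, Ccl2, Ccl7, Ccl4, Ccl3 and Ccl22. There, Ccl6 and Ccl24, and Ccl5 and Ccl2, were the neighbours that did not overlap.

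The ligands differed in how far they depended on 1 liver. HFD + PBS replicate 3 was the highest library for 6 of the 9 ligands, and HFD + IgG1 replicate 5 was the lowest for 5. Against the mean of the other 2 HFD + PBS livers, replicate 3 had 6.25 times the CPM of Ccl7, 5.48 times that of Ccl4, 5.29 times that of Ccl5, 4.21 times that of Ccl22 and 3.43 times that of Ccl2. For Ccl3 the ratio was 2.34, for Ccl9 1.36, for Ccl6 1.03 and for Ccl24 0.900. Ccl6 thus stood equally high in all 3 HFD + PBS livers, while most of the Ccl4 and Ccl5 signal of that group came from 1 of them. Summed over the ligands other than Ccl6 and Ccl9, the CPM was 57.4, 14.3 and 20.8 in HFD + PBS, 12.2, 23.5 and 15.5 in normal diet and 5.64, 12.3 and 10.9 in HFD + IgG1.

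Markers of macrophages and neutrophils were high in HFD + PBS, as several of the ligands were. Those of cholangiocytes were high as well, so this was not particular to myeloid cells, and those of B cells were not. All 13 markers of recruited macrophages and monocytes, led by Lyz2, Chil3 and Spp1, passed the filter, and 8 were higher in HFD + PBS than in normal diet at an unadjusted edgeR p under 0.05, against 9.41% of all genes. They summed to 422 to 566 CPM in normal diet, 987 to 2500 in HFD + PBS and 199 to 1023 in HFD + IgG1. The 14 neutrophil markers, led by Lcn2, S100a9 and S100a8, summed to 97.7 to 2054, 3396 to 8156 and 29.3 to 2290 CPM. At an unadjusted edgeR p under 0.05, 7 of the 14 were higher in HFD + PBS than in normal diet, against 9.41% of all genes. By the same measure 2 of the 14 were lower in HFD + IgG1 than in HFD + PBS, a share near the 11.6% of all genes. Other lists were further from that share. In that comparison 9 of the 13 markers of recruited macrophages and monocytes were lower, as were 7 of 12 for Kupffer cells and 7 of 14 for T and NK cells. Of the 6 B cell markers tested, 1 was lower. No marker of these lists was higher by this measure. The 12 Kupffer cell markers, led by Cd5l, Clec4f and Csf1r, summed to 2279 to 2914, 3369 to 3757 and 982 to 3312. The 7 B cell markers summed to 15.1 to 18.9, 9.78 to 19.03 and 6.70 to 15.1. The 7 cholangiocyte markers summed to 16.7 to 21.8, 33.2 to 85.7 and 25.5 to 34.4. All 7 had a positive log2 fold change for HFD + PBS over normal diet, as 49.7% of all genes had. Of these, 3 were higher at an unadjusted edgeR p under 0.05, against 9.41%. Of the 14 T and NK cell markers, 12 were positive in that comparison and 1 was higher by that p. No marker of these lists was at 0 in all libraries.

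The marker sums also differed between livers of 1 group. HFD + IgG1 replicate 6 was the antibody-treated liver with the high Ccl6. It had the highest sums of its group for recruited macrophages and monocytes, neutrophils and Kupffer cells. These were 1023, 2290 and 3312 CPM, against 199 to 323, 29.3 to 62.0 and 982 to 1316 in replicates 5 and 7. HFD + PBS replicate 3 had the highest sums of all libraries for recruited macrophages (2500 CPM) and neutrophils (8156 CPM). Hepatocyte markers, led by Alb, Fgb and Apoa1, had the lowest sum (52940 CPM) in HFD + PBS replicate 3 and the highest (167100 CPM) in HFD + IgG1 replicate 5. HFD + PBS replicate 4 was high in both, since its hepatocyte sum of 107900 CPM and its macrophage and neutrophil sums exceeded those of every normal diet liver. The part of cell composition in the ligand results was not tested.

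**Figure D4:**
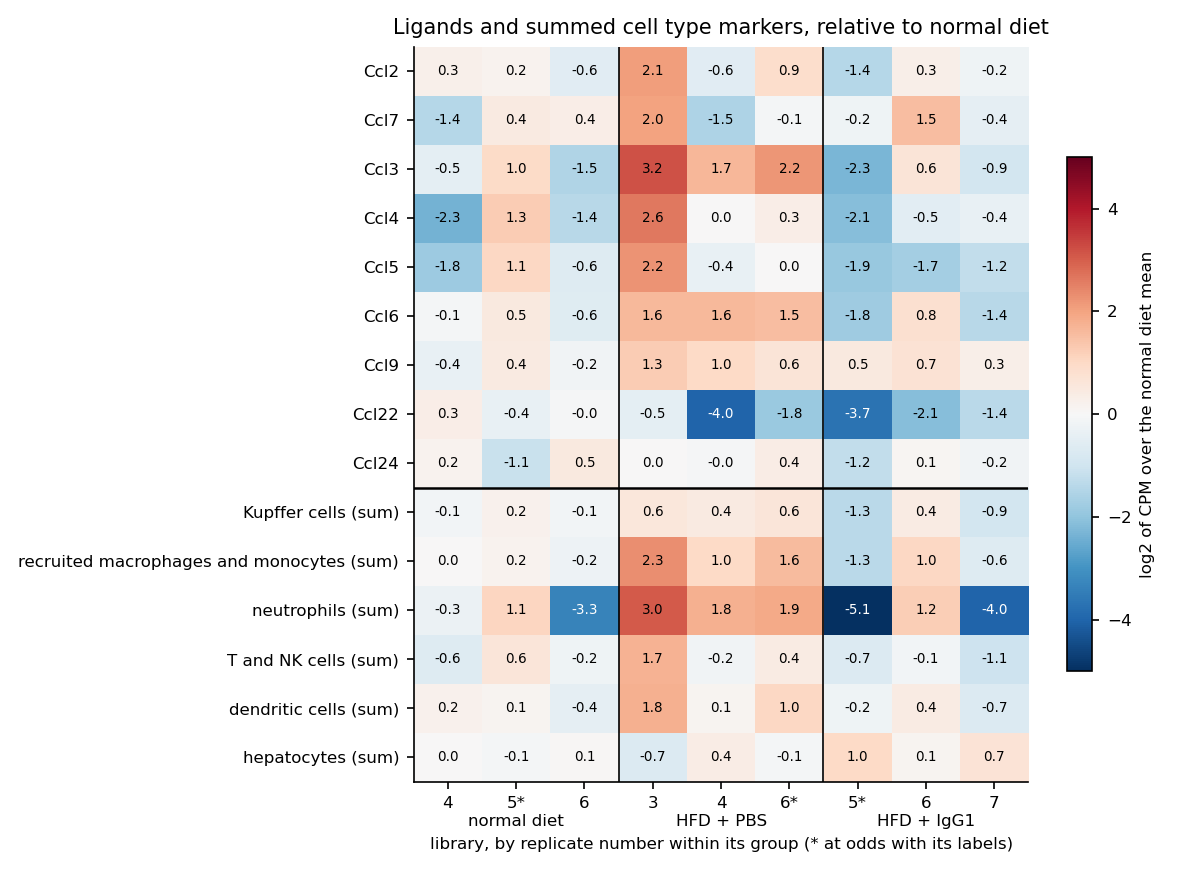
log2 of each library's CPM over the normal diet mean for the 9 ligands and for summed cell type markers, with libraries in columns (an asterisk marks the doubtful ones). The neutrophil row runs from -5.08 in HFD + IgG1 replicate 5 to 3.05 in HFD + PBS replicate 3, and Ccl22 is below its normal diet mean in all 6 HFD columns.

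Among receptors for CC chemokines, 9 of 15 passed the filter and none passed the adjusted threshold in edgeR. Ccr1, the receptor of Ccl3, Ccl6 and Ccl9 on myeloid cells, had 2.50, 2.39 and 0.660 CPM in normal diet, 19.7, 5.37 and 9.03 in HFD + PBS and 1.50, 4.49 and 0.242 in HFD + IgG1. Every HFD + PBS liver was above every other library, as for Ccl3 and Ccl6. Its log2 fold change was 2.61 (SE 0.89, edgeR adjusted p = 0.167) for HFD + PBS over normal diet and -2.43 (SE 0.89, edgeR adjusted p = 0.159) for HFD + IgG1 over HFD + PBS. At an unadjusted p under 0.05, 1 of 9 receptors (Ccr1) was higher in the first comparison and 1 (Ccr1) lower in the second, shares near the 9.41% and 11.6% of all genes.

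Ccr2, the receptor of Ccl2, ranged from 10.2 to 83.7 CPM in HFD + PBS and from 6.36 to 23.9 in normal diet, and so overlapped. Ackr4, a receptor that takes up Ccl25 and other homeostatic ligands without signalling to leukocytes, was lower in every HFD + PBS liver than in any normal diet liver (log2 fold change -1.52, SE 0.50, edgeR adjusted p = 0.151). The median log2 fold change of the 9 receptors was 0.27 for HFD + PBS over normal diet and -0.59 for HFD + IgG1 over HFD + PBS.

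Of 13 other CC ligands found in the table, 3 passed the filter. Ccl25, which binds Ccr9 of gut-homing lymphocytes, stood at 4.95, 4.79 and 5.46 CPM in normal diet, 2.56, 2.34 and 2.37 in HFD + PBS and 4.21, 3.05 and 4.29 in HFD + IgG1. All HFD + PBS livers were below all others, and all HFD + IgG1 livers were below all normal diet livers. The log2 fold change was -1.06 (SE 0.25, edgeR adjusted p = 0.0865) for HFD + PBS over normal diet and 0.66 (SE 0.25, edgeR adjusted p = 0.162) for HFD + IgG1 over HFD + PBS. The others were Ccl27a, a skin and epithelial ligand of Ccr10 with near-identical gene copies and so an uncertain count (-0.43, SE 0.34, and 0.58, SE 0.34), and Ccl28 with 1 to 13 counts. Ccl19, Ccl20, Ccl21b and Ccl26 had 0 counts in all 9 libraries, and Ccl8 had at most 37. Ccl12 and Ccl17 had at most 11 and 7 counts and so were not tested. Both were higher in every HFD + PBS library than in any other, at 0.229 to 0.567 CPM and 0.221 to 0.400 CPM against at most 0.111 and 0.121. They were named after their values were seen, and no result rests on them. Of all genes tested, 13% were higher in HFD + PBS than in normal diet without overlap.

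**Figure D5:**
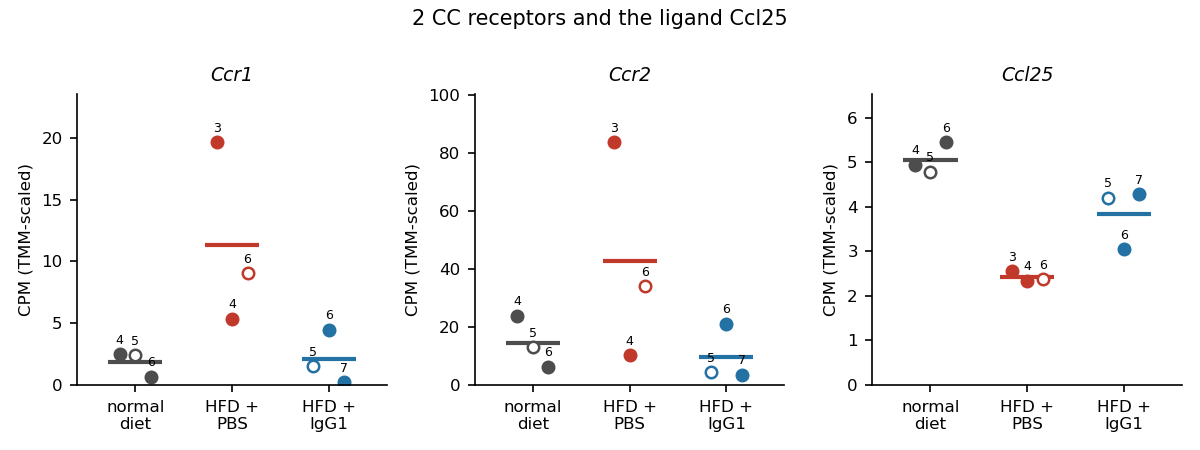
CPM (TMM-scaled, linear axes from 0) of the receptors Ccr1 and Ccr2 and of the ligand Ccl25 in each library, with group means as bars and open points for doubtful libraries. Ccr1 is highest and Ccl25 lowest in the 3 HFD + PBS livers, at 5.37 to 19.7 and 2.34 to 2.56 CPM.

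Genes of the NF-kB pathway and the cytokines that induce these ligands differed in 1 direction in each comparison that involved HFD + PBS. Of 18 listed, 15 passed the filter. All 15 had a positive log2 fold change for HFD + PBS over normal diet (median 0.54, against 0.00 over all genes), as 49.7% of all genes had. All 15 had a negative one for HFD + IgG1 over HFD + PBS (median -0.84, against 0.04), where 52.8% of all genes were positive. None passed the adjusted threshold in edgeR. At an unadjusted p under 0.05, 4 were higher in the first comparison, against 9.41% of all genes, and 7 lower in the second, against 11.6%. Tnfaip3, an NF-kB target that restrains the pathway, averaged 6.90 ± 2.37 CPM in normal diet, 22.1 ± 5.27 in HFD + PBS and 8.92 ± 4.94 in HFD + IgG1 (SD, n = 3; log2 fold changes 1.68, SE 0.40, and -1.30, SE 0.39). Nfkbia, the inhibitor that NF-kB induces, averaged 39.1 ± 5.41, 61.4 ± 9.33 and 33.8 ± 7.78 CPM in the same groups (0.65, SE 0.20, and -0.86, SE 0.20). In HFD + IgG1 over normal diet, 5 were positive and 10 negative, with a median of -0.21. The HFD + PBS livers enter both medians with opposite sign.

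Of 13 genes listed for alternative macrophage activation, the state in which Ccl22 and Ccl24 are commonly made, 8 passed the filter. Which cells of the liver made their RNA was not tested, and Arg1 among them averaged 1025 CPM in normal diet. All 8 had a positive log2 fold change for HFD + PBS over normal diet (median 0.42), against 49.7% of all genes (median -0.0028). All 8 had a negative one for HFD + IgG1 over HFD + PBS (median -0.61), where 52.8% of all genes were positive (median 0.04). None passed the adjusted threshold. Clec10a, a macrophage lectin, averaged 0.469 ± 0.146, 1.83 ± 0.402 and 0.738 ± 0.148 CPM in normal diet, HFD + PBS and HFD + IgG1 (SD, n = 3; log2 fold changes 1.95, SE 0.44, and -1.30, SE 0.42). In the diet comparison Ccl22 was at -1.45 and Ccl24 at 0.12 (SE 0.42), and their difference from the list was not tested. Il13 had 0 counts in all libraries and Il4 had 1 to 11.

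Across the 9 libraries, a mean profile was made of the 8 ligands tested, each as standardised log2 CPM. The ligands' own Pearson r with it was 0.939 for Ccl3, 0.916 for Ccl2, 0.883 for Ccl4, 0.857 for Ccl5 and 0.849 for Ccl6. It was 0.605 for Ccl9, 0.373 for Ccl24 and 0.272 for Ccl22, so these 3 were least like it. Each ligand is itself part of the profile, which raises its r. Of 13208 genes with at least 1 CPM on average, those most like the profile were Dsn1 (r = 0.990), Cgas (0.984), Nkg7 (0.983), Twf2 (0.980) and Cd52 (0.978), over the same 9 libraries, which share depth, scaling and cell composition. The profile was highest in HFD + PBS replicate 3 (1.40) and lowest in HFD + IgG1 replicate 5 (-1.18). These values are a description.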

How the data were processed

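The members and gene lists were chosen with earlier results of these data known. The authors deposited raw counts, whole numbers for each Ensembl ID. The submitters' processing notes name Bowtie 0.12.2 and mm10. The counting program, annotation and strand setting were not given in the sources used here. Per the labels' protocols, 1 µg of liver RNA went into a NEBNext library. Of 54532 IDs, 54409 were named from GENCODE M21 (123 were not), and 26478 had a count.

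Differences were tested with edgeR 4.0.16 (R 4.3.3; TMM, filterByExpr with minimum count 10 and minimum total 15, robust glmQLFit, two-sided glmQLFTest), fitting 3 group means to the 9 libraries together. Benjamini-Hochberg adjustment covered the 14763 genes that passed, at a threshold of 0.05. CPM is scaled by the TMM factor and RPKM divides it by the union of a gene's exons. An SE is the unshrunk log2 fold change over the root of F. Groups came from titles and design. That libraries are separate mice is the design's statement, and p-values measure the spread between these chosen livers. Alternatives were DESeq2 1.42.0, limma-voom (limma 3.58.1), RLE or upper-quartile factors, other filters, no robust fit, only the 6 libraries compared, a replicate block, and libraries left out, and the workflow was tested on simulated data. Promoter windows were aligned locally (match 2, mismatch -3, gap open -5, extend -2).

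Genes named are the 9 ligands, up to 4 genes per comparison with the smallest p of each pathway list, up to 3 of highest CPM of each marker list, the 5 genes most like the mean profile, and Apoe, Xist and 4 Y-linked genes. Other ligands and receptors with 0 or few counts, the single receptors drawn, and Il4 and Il13 were named after their values were seen. A receptor that falls under this rule is not reported here. Replicate numbers did not pair the livers: libraries with the same number had deviations from their group means that correlated at -0.49 to 0.01.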

Additional observations from a re-analysis of the deposited data

How the results depend on the processing

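Each comparison was refitted under 19 alternatives. edgeR called 0 ligands in all 3. For HFD + PBS over normal diet, DESeq2 called 3 ligands (1184 genes), no filter on low counts 1 (Ccl9, 274 genes), and a fit of only the 6 libraries compared 1 (Ccl6, 184 genes). Leaving out 1 library gave 0 to 2, with the 2 (Ccl6 and Ccl9, 576 genes) found without HFD + IgG1 replicate 6. For HFD + IgG1 over HFD + PBS, DESeq2 called 3 (1265 genes), and leaving out 1 library gave 0 to 2, with the 2 (Ccl3 at -3.84 and Ccl6 at -3.16, 2356 genes) found without HFD + IgG1 replicate 6. For HFD + IgG1 over normal diet no alternative called a ligand. The cause of these differences was not tested. With the replicate number as a replicate block, 0 ligands were called in each comparison, and no call changed. Of 504 single values under alternatives, 471 kept direction and side of the threshold, 12 newly passed, 0 no longer passed and 21 turned.

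Without the 3 doubtful libraries, Ccl24 turned to -0.33 for HFD + PBS over normal diet, and for HFD + IgG1 over normal diet Ccl2 turned to 0.16, Ccl3 to 0.96, Ccl4 to 1.28, Ccl6 to 0.43 and the median of the ligands, 9 with Ccl7, to 0.43. The replicate block turned Ccl24 to -0.14 for HFD + PBS over normal diet and Ccl22 to 0.061 for HFD + IgG1 over HFD + PBS. With that block, Ccl2 was at 0.0020 and -0.61 in these 2 comparisons, and Ccl22 at -2.79 in the first. Over the 9 fits that leave out 1 library, these and a few more crossed 0. Ccl5 ran from -0.14 (without HFD + PBS replicate 3) to 2.22 and Ccl24 from -0.22 (without normal diet replicate 5) to 0.44 for HFD + PBS over normal diet. Ccl22 ran from -1.16 to 0.42 (without HFD + PBS replicate 3) for HFD + IgG1 over HFD + PBS. For HFD + IgG1 over normal diet, the ranges were -0.66 to 0.059 for Ccl2, -1.38 to 0.57 for Ccl3, -1.26 to 0.95 for Ccl4, -1.55 to 0.10 for Ccl6 and -1.17 to 0.052 for the median. The highest values there came without normal diet replicate 5 (Ccl3 and Ccl4) or HFD + IgG1 replicate 5 (Ccl2, Ccl6 and the median). Ccl4 and Ccl22 had no value under a filter of 1 CPM in 3 libraries. Depth limits Ccl3, Ccl4, Ccl7 and Ccl22, which had as few as 1 or 2 counts in a library.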
